A study of Mus musculus with 9 samples.

Results

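Genes of cholesterol and fatty acid synthesis were followed through mouse lung after lipopolysaccharide and a herbal decoction. A list of 34 genes was matched by symbol to the deposited gene table, and 34 of 34 were found among its 21930 protein-coding genes and had enough reads to be tested with 15636 genes in all. The list holds 17 enzymes of the sterol branch, 6 genes of control and transport (Srebf1, Srebf2, Scap, Insig1, Insig2 and Stard4) and 11 enzymes of the fatty acid branch. Gene coordinates are those of the table on GRCm38 (mm10), and for 34 of the 34 genes they equal those of GENCODE M21.

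The study asked how lung transcripts differ after lipopolysaccharide (LPS), a bacterial outer membrane component used here as a model of acute lung injury, and whether Renshen Baidu Powder (RSBD), a herbal formula, changes them. Lungs of 9 male C57BL/6 mice aged 6 to 8 weeks were sequenced, 3 per group, and the design text calls the 3 of a group biological replicates. Control mice received sterile saline in the trachea. LPS mice received 2 mg/kg LPS by the same route and were then gavaged with vehicle, and LPS plus RSBD mice (libraries RSBD 1 to 3) received the same LPS and the RSBD decoction. Gavage was daily from 24 h and given as lasting 5 days, lungs were taken on day 5 after LPS, and all groups were anesthetized with tribromoethanol. How many doses had been given by collection is not clear from the labels, nor is it stated whether control mice were gavaged. No group received RSBD without LPS.

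Cells build cholesterol from acetyl-CoA through mevalonate, isoprenoids, squalene and lanosterol, and they build fatty acids from acetyl-CoA through malonyl-CoA. Both routes are driven by the SREBP transcription factors, encoded by Srebf1 and Srebf2. SCAP carries SREBP out of the endoplasmic reticulum when sterols are low, and INSIG proteins hold the pair back when sterols are high. In the lung, alveolar type 2 cells use these routes to make surfactant, a film of phospholipid with cholesterol, which alveolar macrophages later take up and break down.

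The labels give every mouse as male, but the 3 libraries labelled control held 6, 7 and 9 reads of chromosome Y genes against 7511 to 10918 in each of the other 6 libraries. In every comparison with control, the treatment and the presence of chromosome Y transcripts therefore cannot be told apart. Total counts per library ran from 26959662 to 36113905. Markers of lung epithelium were abundant: 14 alveolar type 2 genes summed to between 14021 and 21238 CPM per library (counts scaled to a library size of 1000000, after TMM scaling), with overlapping ranges in the 3 groups. Since whole lung was sequenced, fewer cells of a type and less RNA per cell cannot be told apart.

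Upstream sequence is shown for the first enzyme of the sterol list, Hmgcs1, and for 3 later enzymes that were lower in LPS lungs, Pmvk, Lss and Sc5d. Windows of 300 bases, from 250 before to 50 after the annotated start, were taken from the RefSeq promoter table (GRCm38.p6), which matched 27 of the 34 genes. The lines below give, 5′ to 3′ on the gene's strand, the 250 bases before the RefSeq start for 3 of the genes. For Lss, whose gene model in the table begins before the RefSeq start, they give the first 233 of these bases. Capitals mark CCAAT on either strand (read as ATTGG when on the other strand), the letters bound by the factor NF-Y, and TCACNCCAC on either strand, letters of a sterol regulatory element that SREBP binds.
Hmgcs1 (chr13:119690101-119690350, forward strand): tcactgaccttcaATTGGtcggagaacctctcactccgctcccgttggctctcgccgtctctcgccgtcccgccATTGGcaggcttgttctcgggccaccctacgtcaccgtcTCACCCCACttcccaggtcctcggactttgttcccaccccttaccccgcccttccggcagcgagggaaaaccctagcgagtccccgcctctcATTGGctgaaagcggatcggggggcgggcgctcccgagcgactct
Pmvk (chr3:89454291-89454540, forward strand): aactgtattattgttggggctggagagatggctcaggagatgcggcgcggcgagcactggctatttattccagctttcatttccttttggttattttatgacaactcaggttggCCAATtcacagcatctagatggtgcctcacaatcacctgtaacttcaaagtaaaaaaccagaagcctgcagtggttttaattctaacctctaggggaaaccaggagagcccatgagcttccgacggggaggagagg
Lss (chr10:76531355-76531587, forward strand): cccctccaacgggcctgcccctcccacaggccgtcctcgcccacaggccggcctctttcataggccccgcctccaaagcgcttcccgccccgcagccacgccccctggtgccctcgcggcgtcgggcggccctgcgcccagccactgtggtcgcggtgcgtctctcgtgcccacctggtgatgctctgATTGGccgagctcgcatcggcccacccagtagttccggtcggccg
Sc5d (chr9:42264301-42264550, reverse strand): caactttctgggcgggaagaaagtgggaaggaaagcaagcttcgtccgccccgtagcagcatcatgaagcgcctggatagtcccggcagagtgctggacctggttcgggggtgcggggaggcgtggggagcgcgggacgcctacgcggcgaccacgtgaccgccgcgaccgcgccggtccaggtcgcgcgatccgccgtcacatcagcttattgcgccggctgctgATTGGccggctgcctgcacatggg
The letters TCACCCCAC lie 137 bases before the RefSeq start of Hmgcs1 and share no base with its CCAAT matches, 237, 176 and 45 bases before it. The single CCAAT match lies 136 bases before the RefSeq start in Pmvk, 62 in Lss and 24 in Sc5d. Some genes have several annotated starts and so several windows. CCAAT was present in 14 of 17 whole windows of sterol branch genes, in 5 of 10 of control and transport genes and in 5 of 9 of fatty acid branch genes. It was present in 37.4% of the 32851 windows of the table and in 37.2% of the windows of tested genes. TCACNCCAC was found in 1 of the 17 sterol branch windows, in 0 of the other members' windows and in 1.24% of all windows. The GC box GGGCGG, bound by Sp1 family factors, was found in 14 of 17 sterol branch windows, 8 of 10 control and transport windows and 4 of 9 fatty acid branch windows, against 57.6% of the windows of tested genes. The E-box CACGTG was found in 3 of 17, 3 of 10 and 0 of 9, against 9.13% of those windows. Each motif was searched on both strands, and a match of letters is a description of the sequence and not a binding site.

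In control lungs the desaturases stood at the top of the group. On the length-corrected TPM scale, Scd1, which puts a double bond into saturated fatty acids, had the highest mean level of the 34 genes at 1283 ± 318 TPM (mean ± SD, n = 3), followed by its relative Scd2 at 322 ± 27.5 TPM. Pmvk followed at 117 ± 50.3, Acly at 115 ± 16.7 and Fdps at 104 ± 26.9 TPM, and these 3 neighbours differ by less than their spread. The lowest levels were those of Elovl6 at 4.15 ± 0.969 TPM, Hsd17b7 at 9.72 ± 2.48 TPM and Acacb at 9.96 ± 0.769 TPM. Synthesis genes of both branches were thus read well above the count minimum in every library, the smallest count being 45 reads for Elovl6 in control 1.

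**Figure D1:**
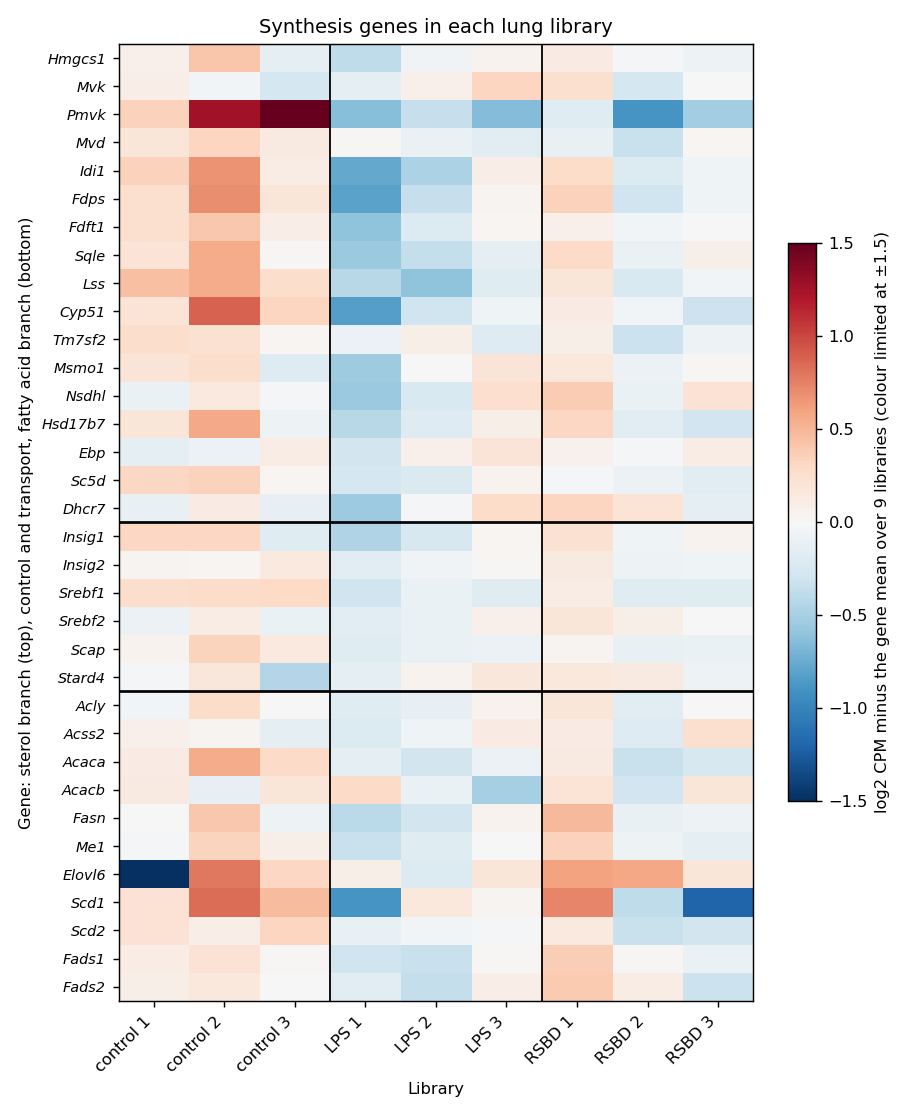
Level of each of the 34 genes (rows) in each of the 9 libraries (columns), as log2 CPM minus the gene's mean over the 9 libraries, with the colour limited at ±1.5. The darkest reds are Pmvk in control 2 and control 3, the LPS 1 column is mostly blue, and the RSBD 1 column is mostly red.

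Compared with control, LPS lungs had lower transcript levels of 9 of the 34 genes and higher levels of none by edgeR's quasi-likelihood test (adjusted p under 0.05 over 15636 genes). Over the tested genes 17.4% passed that test, 8.79% higher and 8.63% lower. Of the 9, 6 belong to the sterol branch (Pmvk, Fdft1, Sqle, Lss, Cyp51 and Sc5d), 2 to control and transport (Srebf1 and Scap) and 1 to the fatty acid branch (Acaca). The median log2 fold change was -0.37 in the sterol branch, -0.22 in control and transport and -0.27 in the fatty acid branch, against -0.0065 over all tested genes. The fitted change was negative in 31 of the 34 genes and in 50.6% of all tested genes. At an unadjusted p under 0.05 there were 14 members, against 34.5% of tested genes. The highest LPS library lay below the lowest control library for 14 of the 34 genes (8 sterol, 3 control and transport, 3 fatty acid), which holds for 19.5% of tested genes, and the reverse held for 0 of the 34 and 18.6% of tested genes.

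**Figure D2:**
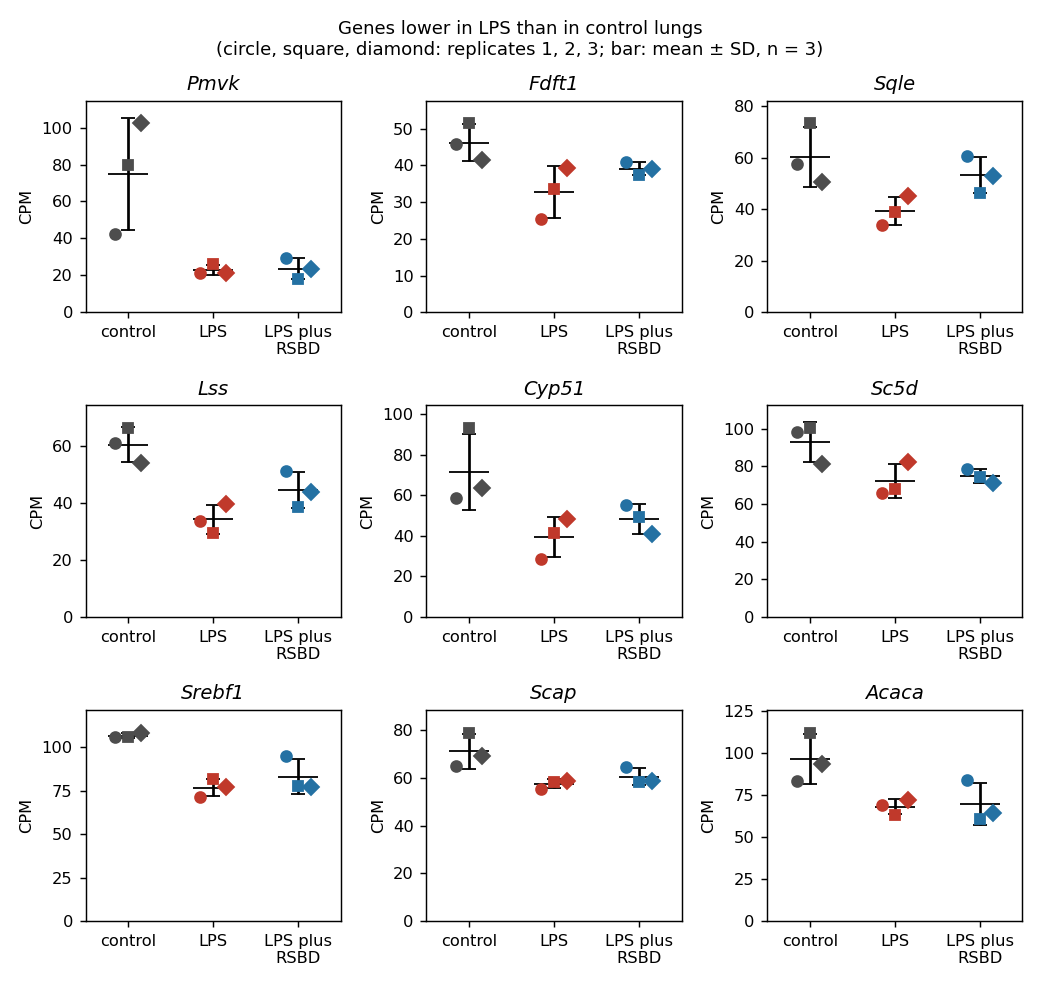
CPM of the 9 genes lower in LPS than in control lungs, 1 panel per gene with a linear axis from 0; circles, squares and diamonds are replicates 1, 2 and 3, and bars give the mean ± SD (n = 3 libraries). LPS points lie below the control points in 8 panels, and in the Sc5d panel LPS 3 at 82.5 CPM lies above control 3 at 81.0 CPM.

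Along the mevalonate steps, Pmvk changed most. Pmvk encodes phosphomevalonate kinase, which adds the second phosphate to mevalonate (ENSMUSG00000027952, chromosome 3, 89454541 to 89469013, forward strand). Its level was 42.6, 79.8 and 102 CPM in control 1 to 3, 21.4, 26.2 and 21.3 CPM in LPS 1 to 3 and 29.5, 18.1 and 23.3 CPM in RSBD 1 to 3. Every LPS library lay below every control library, and control 1 was well below the other control libraries. The log2 fold change of LPS against control was -1.71 ± 0.30 (SE, adjusted p = 0.0091), a ratio of 0.307. Pmvk was lower than control in 19 of 19 alternative analyses, with log2 fold changes from -1.99 to -1.41.

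The other genes of the route up to farnesyl diphosphate did not pass the test. Hmgcs1, the enzyme that makes HMG-CoA (chromosome 13, 119690379 to 119708260), had 121, 154 and 103 CPM in control, 87.8, 110 and 119 CPM in LPS and 125, 113 and 109 CPM in RSBD libraries. The ranges overlap, and the change in LPS was -0.25 ± 0.15 (adjusted p = 0.27). Idi1, which interconverts the isoprene units, and Fdps, which joins them to farnesyl diphosphate, had non-overlapping groups. Their changes were -0.73 ± 0.23 and -0.72 ± 0.24, but with adjusted p of 0.056 and 0.067. Exons of Fdps overlap those of Gm43738. Mvd, the decarboxylase between Pmvk and Idi1, also had non-overlapping groups and changed by -0.30 ± 0.12 (adjusted p = 0.12). Mvk, the kinase just before Pmvk, changed by 0.16 ± 0.18 (adjusted p = 0.57), so adjacent steps of the route differed in direction of the estimate.

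From farnesyl diphosphate through squalene to lanosterol, all 3 steps measured were lower. Fdft1, squalene synthase (chromosome 14, 63145150 to 63179578), had 45.8, 51.4 and 41.3 CPM in control, 25.4, 33.4 and 39.4 CPM in LPS and 40.8, 37.5 and 39.0 CPM in RSBD libraries. LPS 3 lay close to the lowest control library and LPS 1 far below it, and the change was -0.50 ± 0.15 (adjusted p = 0.045), which passed in 9 of 19 alternatives. Exons of Fdft1 overlap those of Ctsb, and reads there may have been assigned to either gene. Sqle, squalene epoxidase (chromosome 15, 59315077 to 59331192), had 57.4, 73.2 and 50.5 CPM in control, 33.9, 38.9 and 45 CPM in LPS and 60.6, 46.4 and 52.8 CPM in RSBD libraries. The control and LPS ranges were apart, with a change of -0.62 ± 0.16 (adjusted p = 0.028), which passed in 15 of 19 alternatives. Lss, lanosterol synthase, which closes the sterol rings (ENSMUSG00000033105, chromosome 10, 76531588 to 76557138), had 61.1, 66.2 and 53.9 CPM in control, 33.5, 29.6 and 39.6 CPM in LPS and 51.0, 38.4 and 43.7 CPM in RSBD libraries. No LPS library came near a control library, and the change of -0.82 ± 0.14 (adjusted p = 0.0069, a ratio of 0.567) was kept in 19 of 19 alternatives, from -0.92 to -0.72.

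Of the 8 genes that trim lanosterol to cholesterol, Cyp51 and Sc5d were lower. Cyp51, lanosterol demethylase (chromosome 5, 4081145 to 4104746, with exons that overlap Akap9), had 58.4, 93.1 and 63.4 CPM in control, 28.6, 41.2 and 48.3 CPM in LPS and 55.0, 49.1 and 40.7 CPM in RSBD libraries. The groups of control and LPS were apart, control 2 stood above the other control libraries, and the change was -0.86 ± 0.23 (adjusted p = 0.033), which passed in 14 of 19 alternatives. Sc5d, a sterol desaturase near the end of the route (chromosome 9, 42251595 to 42264256), had 98.2, 100.4 and 81.0 CPM in control, 65.9, 67.9 and 82.5 CPM in LPS and 78.4, 74.5 and 71.0 CPM in RSBD libraries. Here control 3 and LPS 3 overlapped, and the change of -0.37 ± 0.11 passed at an adjusted p of 0.046 and in 9 of 19 alternatives. The other 6, Tm7sf2, Msmo1, Nsdhl, Hsd17b7, Ebp and Dhcr7, did not pass, with changes between -0.41 (Hsd17b7) and 0.05 (Ebp) and overlapping groups. Exons of Tm7sf2 overlap those of Vps51. Dhcr7, which makes cholesterol from its direct precursor, changed by -0.022 ± 0.20 (95% interval -0.46 to 0.42).

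Among the regulators, Srebf1 and Scap were lower, while Srebf2, which encodes the factor best known for sterol genes, was close to its control level. Srebf1 encodes SREBP1, best known for fatty acid genes (ENSMUSG00000020538, chromosome 11, 60199089 to 60222581, with exons that overlap Rai1). It had 105, 106 and 108 CPM in control, 71.4, 81.6 and 77.1 CPM in LPS and 94.5, 77.4 and 77.0 CPM in RSBD libraries. The control libraries had an SD of 1.52 CPM and lay above all the others, and the change in LPS was -0.47 ± 0.09 (adjusted p = 0.012), kept in 19 of 19 alternatives. Scap, the escort protein (chromosome 9, 110333288 to 110384950), had 64.9, 78.8 and 69.1 CPM in control, 55.4, 58.2 and 58.8 CPM in LPS and 64.6, 58.1 and 58.6 CPM in RSBD libraries. Its groups were apart in LPS against control by a change of -0.30 ± 0.09 (adjusted p = 0.044), which passed in 4 of 19 alternatives.

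Srebf2 (chromosome 15, 82147181 to 82205379) had 154, 177 and 153 CPM in control, 146, 153 and 173 CPM in LPS and 186, 175 and 164 CPM in RSBD libraries. These ranges overlap, and the change in LPS was -0.036 ± 0.096 with a 95% interval of -0.25 to 0.18. Insig1, itself a known SREBP target (chromosome 5, 28071363 to 28078662), had 123, 123 and 87.2 CPM in control, 72.4, 84.1 and 101 CPM in LPS and 116, 94.4 and 103 CPM in RSBD libraries. Control 3 fell inside the LPS range, and the change of -0.37 ± 0.16 did not pass (adjusted p = 0.13). Insig2 and Stard4, a sterol carrier, did not pass either, at -0.14 ± 0.09 and 0.11 ± 0.15.

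In the fatty acid branch, Acaca was lower and the other 10 genes did not pass the test. Acaca encodes acetyl-CoA carboxylase, which makes malonyl-CoA (chromosome 11, 84129672 to 84401651), and had 83.2, 112 and 93.9 CPM in control, 69.4, 63.1 and 72.0 CPM in LPS and 84.2, 60.8 and 64.7 CPM in RSBD libraries. Control and LPS ranges were apart, with a change of -0.50 ± 0.14 (adjusted p = 0.038), which passed in 10 of 19 alternatives. Fasn, fatty acid synthase (chromosome 11, 120805846 to 120824547), had 348, 461 and 329 CPM in control, 263, 287 and 360 CPM in LPS and 489, 322 and 329 CPM in RSBD libraries. Its ranges overlap in all comparisons, and the change in LPS was -0.32 ± 0.20 (adjusted p = 0.27).

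Scd1 (chromosome 19, 44394455 to 44407879) had 2725, 4190 and 3258 CPM in control, 1278, 2624 and 2425 CPM in LPS and 3908, 1810 and 1024 CPM in RSBD libraries. LPS lay below control, but with this spread the change of -0.69 ± 0.45 has a 95% interval of -1.70 to 0.33 (adjusted p = 0.31), and the RSBD libraries span both groups. Scd2 was also below control in every LPS library, at -0.27 ± 0.13 (adjusted p = 0.17). Acly, Acss2 (with exons that overlap Ggt7 and Gss) and Me1 supply acetyl-CoA and reducing power. They, Acacb, Elovl6 and the desaturases Fads1 and Fads2 had overlapping groups, with changes from -0.32 (Me1) to -0.037 (Acss2). Of these Elovl6, a fatty acid elongase, is uncertain. It had 45 reads (1.58 CPM) in control 1 against 15.7 and 11.2 CPM in the other control libraries, but 3.47 TPM there against 5.26 and 3.71 TPM, so that 1 read stood for 7 times the usual TPM in control 1 alone.

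**Figure D3:**
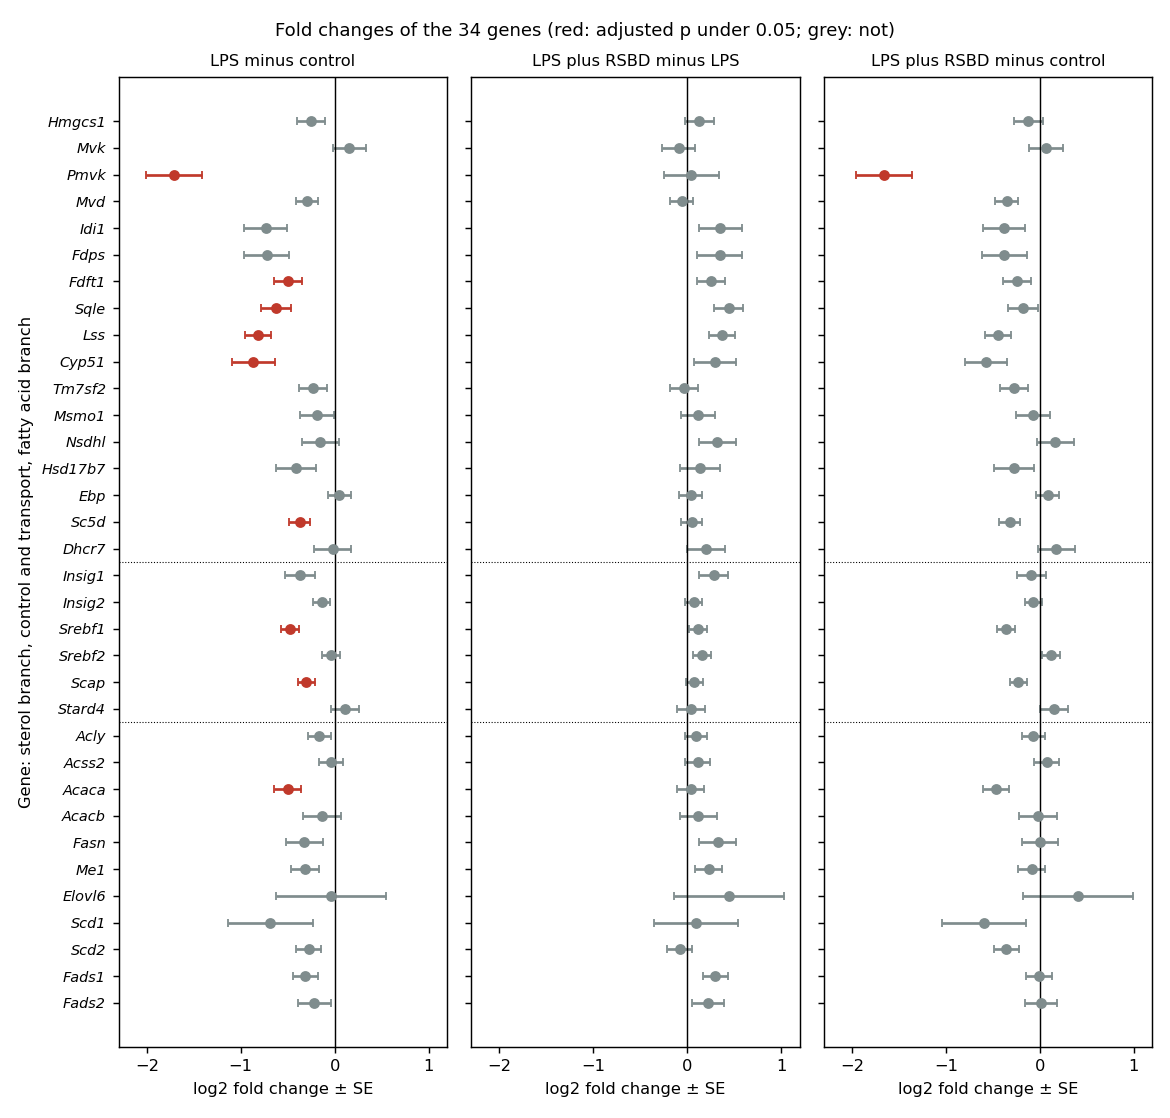
Log2 fold change ± SE of the 34 genes in 3 comparisons, LPS minus control (left), LPS plus RSBD minus LPS (middle) and LPS plus RSBD minus control (right); red points have an adjusted p under 0.05. Red points number 9 on the left, 0 in the middle and 1 on the right, and Pmvk is the point farthest from 0 on both sides.

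How many members passed in LPS against control depended on single libraries. The 9 became 3 without control 2, 3 without LPS 1, 3 without LPS 2 and 5 without control 3, and Pmvk, Lss and Srebf1 passed in each of these. Over all tested genes, 1349 were lower with all libraries, 471 without control 2, 365 without LPS 2 and 488 without control 3. Without LPS 1 that number was 1388, so there the members lost calls while the tested genes as a whole did not. The sterol branch median, -0.37 with all libraries, was -0.24 without control 2. Within the groups, control 2 was the highest control library in 24 of the 34 genes, and LPS 1 was the lowest LPS library in 25 of them, against 30.5% and 41.5% of all tested genes.

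Genes that mark other cells and states are given for the same comparison, in which 17.4% of all tested genes passed, 8.79% higher and 8.63% lower. Of 14 alveolar type 2 markers 0 were higher and 2 lower in LPS, and their summed level was 16439 to 20384 CPM in control and 14021 to 21238 CPM in LPS libraries. Their score, the mean log2 CPM after centring each gene over the 9 libraries, was lowest in LPS 1 (-0.36) and highest in control 2 (0.29), as was the sterol branch score (-0.46 and 0.43). This order was not particular to type 2 markers. The club cell score (-0.80 and 0.43) and the control and transport score (-0.23 and 0.20) had their extremes in the same libraries. The adipocyte, clock and dividing cell scores did not. Of 12 adipocyte markers tested of 14, 3 were lower in LPS, with summed levels of 176 to 214 CPM in control and 117 to 170 CPM in LPS; Lep and Ucp1 were at 0 reads in most libraries. Of 18 circadian clock genes 9 were lower and 0 higher, with summed levels of 1130 to 1401 CPM in control, 937 to 979 CPM in LPS and 1479 to 1644 CPM in RSBD libraries. Estimates were negative for 15 of the 18 and positive for 3. Arntl (means of 26.5 CPM in control and 27.1 in LPS) and Dbp (28.1 and 29.3) stayed near their control level. The list joins clock activators and outputs, so its sum is not a measure of clock phase. Of 10 club cell markers 4 were lower (33445 to 46052 CPM in control, 23990 to 36064 CPM in LPS), and of 14 genes of dividing cells 7 were higher (166 to 207 and 274 to 294 CPM). The part of cell composition and of clock phase in the lower synthesis transcripts was not tested.

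**Figure D4:**
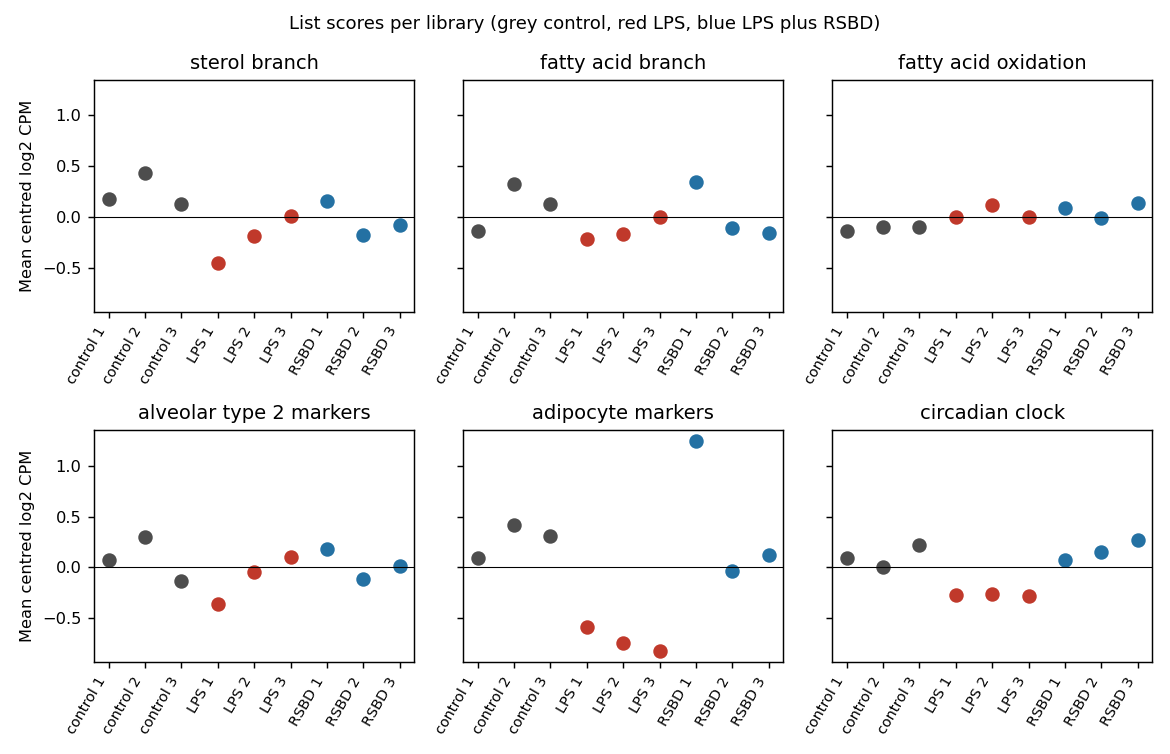
Score of 6 gene lists in each library, as the mean over the list of log2 CPM centred on each gene's mean over 9 libraries (grey control, red LPS, blue LPS plus RSBD). The sterol branch runs from -0.46 in LPS 1 to 0.43 in control 2, RSBD 1 has the highest adipocyte score at 1.25, and the 3 LPS libraries have the lowest clock scores.

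Lipid genes outside the member list are read against the same shares, 8.79% of all tested genes higher and 8.63% lower. The 20 other sterol genes cover uptake, export, storage and sensing, and also synthesis steps such as that of Ggps1. Of these 20, 3 were higher and 3 lower in LPS, with a median of 0.025. Abcg1, which exports sterol from macrophages and other cells, had 71.4, 76.4 and 78.7 CPM in control, 122, 130 and 125 CPM in LPS and 88.6, 111 and 98.3 CPM in RSBD libraries. The 3 groups did not overlap, and the change in LPS was 0.73 ± 0.09 (adjusted p = 0.0028). Scarb1, a lipoprotein receptor, rose by 0.61 ± 0.11 (adjusted p = 0.0075). Mylip, which marks lipoprotein receptors for degradation, fell with a change of -0.62 ± 0.12 (adjusted p = 0.012), and Ggps1, which makes geranylgeranyl diphosphate from the isoprenoid branch point, with -0.29 ± 0.08 (adjusted p = 0.039, passed in 9 of 19 alternatives). Beside these, 5 of 13 alveolar macrophage markers were higher in LPS, with summed levels of 1791 to 2174 CPM in control, 2449 to 4513 CPM in LPS and 1506 to 2358 CPM in RSBD libraries, and their part was not tested.

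Fatty acid oxidation genes that passed the test were higher. Of 13 genes, 5 were higher and 0 lower in LPS, with a median of 0.21. Cpt1a, which lets long-chain fatty acids into mitochondria, had 91.8, 92.3 and 94.2 CPM in control, 207, 182 and 134 CPM in LPS and 154, 190 and 188 CPM in RSBD libraries. All LPS and RSBD libraries were above control, and the change in LPS was 0.91 ± 0.15 (adjusted p = 0.0058). Acadl, an acyl-CoA dehydrogenase, rose by 0.42 ± 0.10 (adjusted p = 0.024), Slc25a20, the mitochondrial carnitine carrier, by 0.57 ± 0.16 (adjusted p = 0.039) and Hadhb, a subunit of the trifunctional protein of beta-oxidation, by 0.30 ± 0.09 (adjusted p = 0.039). Cpt1a passed in 19 of 19 alternatives, Acadl in 12, Slc25a20 in 8 and Hadhb in 7.

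Of 25 tested genes of 26 in other fatty acid and lipid steps, 1 was higher and 4 lower, with a median of -0.079, where 17.4% of all tested genes passed in either direction. Chka, choline kinase of phospholipid synthesis, had 138, 132 and 127 CPM in control, 90.1, 79.7 and 94.2 CPM in LPS and 111, 102 and 104 CPM in RSBD libraries. The 3 groups did not overlap, and the change in LPS was -0.59 ± 0.08 (adjusted p = 0.0040). Mlxipl, which encodes the carbohydrate-responsive factor ChREBP, changed by -1.18 ± 0.22 (adjusted p = 0.0092) and Aacs, acetoacetyl-CoA synthetase, by -0.50 ± 0.15 (adjusted p = 0.043). Lpcat3, a phospholipid acyltransferase, rose by 0.47 ± 0.10 (adjusted p = 0.014). Chka and Mlxipl passed in 19 of 19 alternatives, Lpcat3 in 14 and Aacs in 11.

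**Figure D5:**
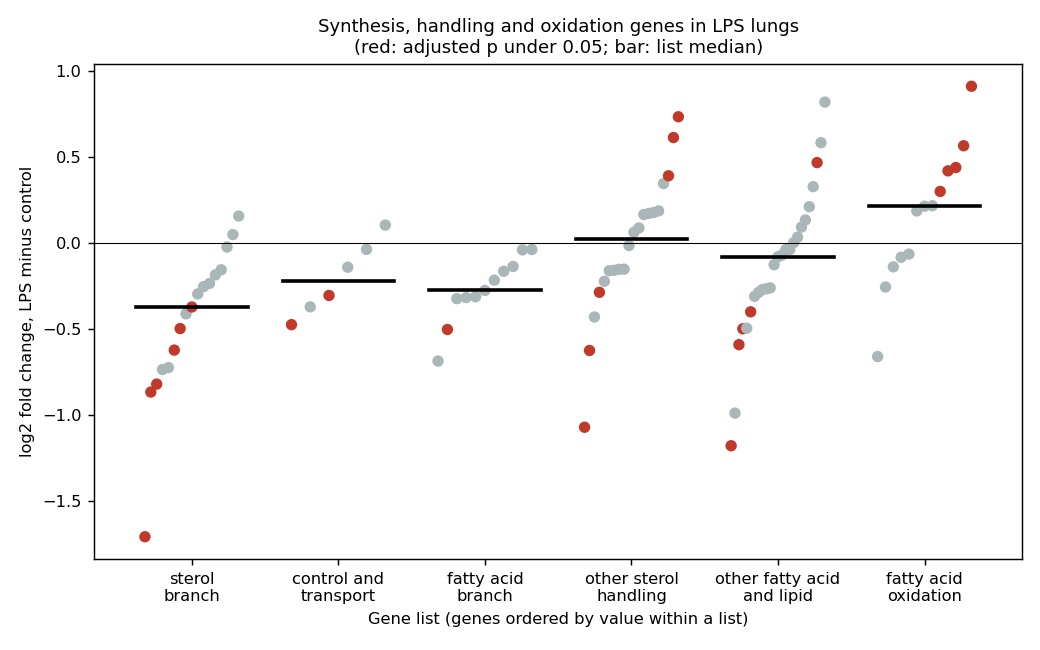
Log2 fold change of LPS minus control for each tested gene of 6 lists, ordered by value within a list; red points have an adjusted p under 0.05 and the bar is the list median. The medians of the sterol branch, control and transport, and fatty acid branch lie at -0.37, -0.22 and -0.27, that of fatty acid oxidation at 0.21.

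With RSBD after LPS, 0 of the 34 genes passed edgeR's test against LPS alone, as did 0 of the 15636 genes (0%). At an unadjusted p under 0.05 there were 1473 genes (9.42%) and 2 members, Sqle and Lss. DESeq2 passed 159 genes and 0 members, and limma on log2 TPM 1 gene and 0 members. Median log2 fold changes were 0.13 in the sterol branch, 0.094 in control and transport and 0.12 in the fatty acid branch, against 0.011 over all tested genes. Positive estimates were found for 30 of the 34 genes and for 8200 of all 15636 tested genes. The 3 LPS libraries also enter the comparison of LPS with control, so the opposite signs in these 2 comparisons are not independent of each other.

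The members with the smallest p were Sqle and Lss. Sqle was higher in every RSBD library (46.4 to 60.6 CPM) than in every LPS library (33.9 to 45 CPM), by 0.44 ± 0.16 with a 95% interval of 0.089 to 0.79 and an adjusted p of 0.45. Lss differed by 0.37 ± 0.14 (0.067 to 0.68, adjusted p = 0.46), with RSBD 2 at 38.4 CPM inside the LPS range. Sqle and Elovl6 were the 2 of 34 genes with RSBD libraries wholly above LPS, a pattern of 7.18% of tested genes, and 0 members lay wholly below LPS, against 5.46%. For the remaining called genes the intervals covered 0, as for Pmvk at 0.045 (-0.62 to 0.71), Cyp51 at 0.29 (-0.21 to 0.80), Srebf1 at 0.11 (-0.096 to 0.32) and Acaca at 0.036 (-0.28 to 0.35). Such differences were not detected here, which does not show that levels were equal.

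The RSBD group was led by 1 library. RSBD 1 had the highest level of its group in 31 of the 34 genes and the lowest in 0, against 31.6% and 29.8% of all tested genes. Without RSBD 1 the sterol branch median against LPS was 0.070, and 0 members had an unadjusted p under 0.05. Without LPS 1, the lowest library of its group, that median was 0.012. RSBD 1 also had the highest adipocyte score (1.25), with high levels of some markers, such as Car3 (36.1 CPM against 1.37 to 12.0 in the other 8 libraries), Cfd (28.9 against 2.14 to 14.6) and Adipoq (5.98 against 0.363 to 2.29). Other markers of the list were not highest in RSBD 1, such as Fabp4 (15.3 CPM against 22.7 in control 3) and Plin4 (20.6 against 24.4), and Lipe was lowest there (69.6 CPM). These markers were chosen after their values were seen. The summed adipocyte list was 138 to 213 CPM in RSBD and 176 to 214 CPM in control libraries, and its part in the levels of RSBD 1 was not tested.

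Against control, the LPS plus RSBD lungs were lower in 1 of the 34 genes, Pmvk, and higher in 0, where 3.7% of all tested genes passed, 1.89% higher and 1.8% lower. Pmvk changed by -1.66 ± 0.30 (adjusted p = 0.025, a ratio of 0.316) and passed in 12 of 19 alternatives. At an unadjusted p under 0.05 there were 9 members, against 22.7% of tested genes. DESeq2 passed 4 members, adding Lss, Srebf1 and Acaca, but it also passed 1757 of all 15636 tested genes. Every RSBD library lay below every control library for 8 of the 34 genes (6 sterol, 2 control and transport, 0 fatty acid), against 15% of tested genes. Besides Pmvk these were Mvd, Fdft1, Lss, Cyp51, Sc5d, Srebf1 and Scap. For Srebf1 the change was -0.36 ± 0.09 (adjusted p = 0.064) and for Lss -0.44 ± 0.14 (adjusted p = 0.097). The sterol branch median was -0.27 and the fatty acid branch median -0.016, against 0.013 over all tested genes, and Fasn stood at 0.0023 ± 0.19. Without RSBD 1 these medians were -0.36 and -0.17, and 3 members passed (Pmvk, Srebf1 and Acaca), among 311 of 15759 tested genes.

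Of the other lipid lists, sterol handling had 1 gene higher (Abcg1, 0.39 ± 0.09, adjusted p = 0.044) and 1 lower (Mylip, -0.65 ± 0.12, adjusted p = 0.025) in LPS plus RSBD than in control lungs. Other lipid genes had 1 lower (Mlxipl, -1.05 ± 0.22, adjusted p = 0.032). Oxidation genes had 2 higher, Cpt1a at 0.93 ± 0.15 (adjusted p = 0.014) and Acadl at 0.48 ± 0.10 (adjusted p = 0.034). Of 19 alternatives, Cpt1a passed in 15, Mylip in 13, Mlxipl in 11, Acadl in 9 and Abcg1 in 7. Both comparisons with control share the 3 control libraries, so their values are not independent of each other.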

How the data were processed

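Per the labels' protocols, strand-specific mRNA libraries were sequenced as paired 150-base reads on a NovaSeq. The submitters' processing notes name fastp 0.23.2, HISAT2 2.2.1, StringTie 2.2.0, DESeq2 1.38.3 and GRCm38, without roles. Which program counted reads, with what strand setting and annotation, is not given in the sources used here. Expected counts per gene, as deposited by the authors, are whole numbers and were used unrounded. The deposited TPM of the authors served for levels per length and for alternatives. RSBD libraries are the columns headed RS, matched by elimination, and 0 columns were left unused.

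Counts of 9 libraries were fitted in R 4.3.3 with edgeR 4.0.16 (filterByExpr with minimum count 10 and total 15, TMM, 1 robust quasi-likelihood fit, 2-sided F tests, Benjamini-Hochberg over 15636 genes, threshold 0.05), checked on simulated data. Standard errors are the fold change over the root of F. The median SE was 0.15. Log2 CPM for scores used a prior count of 2. Alternatives used DESeq2 1.42.0, limma 3.58.1 on log2(TPM + 1) or log2(TPM + 0.1), other scalings and filters, and leaving out each library. Libraries were not duplicates of each other. The members, lists and naming rule (values for members called in any comparison and for Insig1, Srebf1, Srebf2, Hmgcs1, Fasn and Scd1; from the 3 other lipid lists at most the 4 called genes with the smallest p) were chosen with earlier results of these data known. The members named by their groups' overlap, and the adipocyte genes, were chosen after their values were seen.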

Additional observations from a re-analysis of the deposited data

How the results depend on the processing

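Members called in LPS against control numbered 9, with a range of 3 to 9 when single libraries were left out and 3 with the replicate number as a block. Genes called there (2723) ranged from 786 to 2870 without single libraries and were 1532 by limma on log2(TPM + 1) without a filter. By limma on filtered TPM 711 genes were higher and 1338 lower, against 1374 and 1349, and 9 members were lower. For LPS plus RSBD against LPS, genes called were 159 by DESeq2, 1 by limma with either pseudocount, 1 with only the 2 groups fitted and 0 to 4 without single libraries. Against control, LPS plus RSBD had 578 genes called, 1757 by DESeq2, 308 and 307 by limma with pseudocounts 1 and 0.1 (96 higher and 212 lower with the first, against 296 and 282), 137 without the TPM filter, 240 with the block and 94 to 961 without single libraries. Members called there were 4 by DESeq2, 2 by limma with either pseudocount, 0 by limma without the filter, 0 with only 2 groups, 0 with the block and 0 to 3 without single libraries. The cause of these moves was not tested.

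Estimates that changed sign had not passed the test in the comparison concerned. When single libraries were left out, Srebf2 in LPS against control ran from -0.090 to 0.035. In LPS plus RSBD against LPS, Scd1 ran from -0.57 to 0.43, Pmvk from -0.15 to 0.21, Sc5d from -0.010 to 0.14 and Acaca from -0.12 to 0.13, and Scd1 was -0.050 under the 3 limma fits. In LPS plus RSBD against control, Hmgcs1 ran from -0.25 to 0.044 and Fasn from -0.22 to 0.17, and Fasn was -0.0033 by DESeq2, -0.14 under the 3 limma fits and -0.0014 with the block. Deviations of same-numbered libraries from their group means had correlations of -0.21 to 0.12. With 3 libraries per group these values cannot tell whether the numbers pair the mice or mark a batch. The reason for calls lost with the block was not tested. Of the remaining values for single genes and lipid lists, 1028 were labelled unchanged under the alternatives. For a gene this means the same direction and call, including genes that passed in neither fit, and for a list a count within 1.5 times. A further 191 lost a call or fell to a list count of 0, 8 gained a call and 43 list counts moved by over 1.5 times. The smallest count of a member in a library was 45 reads (Elovl6, control 1).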
